A study of Mus musculus with 10 samples.

Results

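The genes described here encode proteins of the mitochondrial ribosome. They were taken as every row of the deposited table whose gene name begins with Mrpl or Mrps followed directly by a digit, leaving out names with -ps, which mark pseudogenes. This gave 78 of 49671 rows, 49 with Mrpl names and 29 with Mrps names. The 5 rows left out reached at most 29 normalized counts in any library. The libraries came from mouse skin epidermis, from cells sorted by FACS for SmoM2-YFP. SmoM2 is an oncogenic mutant of Smoothened that keeps Hedgehog signalling switched on, and YFP marks the cells that carry it. The study asked what Survivin does when basal cell carcinoma forms; its gene is Birc5. There were 5 groups of 2 libraries. Krt14-CREER/Rosa-SmoM2/Survivin LOF at 6 weeks (Survivin LOF) was set against Krt14-CREER/Rosa-SmoM2 at 6 weeks (Krt14 6-week). Inv-CREER/Rosa-SmoM2/Krt14rtTA/Survivin-GOF at 8 weeks (Survivin GOF) was set against Inv-CREER/Rosa-SmoM2 at 8 weeks (Inv 8-week) and against Krt14-CREER/Rosa-SmoM2 at 8 weeks (Krt14 8-week). Krt14 8-week was also set against Inv 8-week and against Krt14 6-week. All groups carried SmoM2 and a CREER recombinase, and TAM, written after the weeks in the titles, was read as tamoxifen. The Krt14 promoter is active in basal keratinocytes, and the Involucrin (Inv) promoter in keratinocytes that differentiate. The labels give Krt14rtTA for the Survivin GOF group alone, so Survivin GOF and Krt14rtTA cannot be told apart, and the sample descriptions name both Inv 8-week libraries as pools.

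The mitochondrial ribosome translates the few messenger RNAs of mitochondrial DNA, which encode subunits of the respiratory chain and ATP synthase. All of its proteins are encoded in the nucleus, made in the cytosol and imported, so that their genes have to be expressed alongside ribosomal RNAs made inside the organelle. Many of the proteins have bacterial homologues, and others are specific to mitochondria. NRF1 and the ETS factor GABP are regulators of nuclear genes for mitochondrial proteins, and MYC, which binds E-boxes, is known to act on ribosome and mitochondrial gene expression. In the annotation the members lay on 17 chromosomes. By structures of the mammalian ribosome, 51 belong to the large subunit (all Mrpl names with Mrps18a and Mrps30) and 26 to the small subunit. Mrps36 was later assigned to the 2-oxoglutarate dehydrogenase complex. Bacterial homologues numbered 48 and mitochondrion-specific members 30.

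Sequence upstream of the start was taken from RefSeq (GRCm38.p6) for the 69 members that had an entry. The 250 bases before the start were searched on both strands for CCGGAAG, the core bound by ETS factors, for the NRF1 motif (GCGC, any 2 bases, GCGC), and for the E-box CACGTG. None of the 3 motifs contains another. The ETS core was found in 18 of the 69 members (26.1%) and in 7.83% of all 27025 genes of the same table. NRF1 was found in 10 members (14.5%) against 5.64% of all genes, and the E-box in 5 (7.25%) against 6.86%. Among the 28 members with an entry that fell in Survivin LOF or in Survivin GOF against Inv 8-week, 28.6% held the ETS core, as did 24.4% of the other 41. The corresponding shares for NRF1 were 10.7% and 17.1%, and for the E-box 7.14% and 7.32%. A match describes letters in a window and is not a binding site. The stretches below, clear of annotated exons, belong to members whose values are described further on, and capitals mark the motifs. Mrpl28, Mrpl36 and Mrpl42 fell in all 3 comparisons that involve altered Survivin. Mrpl36 held an E-box in its 250 bases and is not shown. Mrpl42 and Mrpl28 held none of the motifs in the stretch shown:
Mrpl42, chr10:95501950-95502199, minus strand: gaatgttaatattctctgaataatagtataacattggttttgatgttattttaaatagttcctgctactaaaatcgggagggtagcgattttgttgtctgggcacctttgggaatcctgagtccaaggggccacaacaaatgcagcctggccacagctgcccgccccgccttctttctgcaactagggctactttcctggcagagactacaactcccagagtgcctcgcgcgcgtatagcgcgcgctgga
Mrpl28, chr17:26123255-26123499, plus strand: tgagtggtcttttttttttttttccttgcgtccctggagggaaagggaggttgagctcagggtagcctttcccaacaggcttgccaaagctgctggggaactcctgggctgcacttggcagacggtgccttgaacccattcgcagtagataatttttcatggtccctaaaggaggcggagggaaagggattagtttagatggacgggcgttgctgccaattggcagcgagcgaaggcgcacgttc
Mrpl34 had the largest fall in Survivin LOF, Mrpl58 the second largest in Survivin GOF against Inv 8-week, and each held an ETS core:
Mrpl34, chr8:71464676-71464925, plus strand: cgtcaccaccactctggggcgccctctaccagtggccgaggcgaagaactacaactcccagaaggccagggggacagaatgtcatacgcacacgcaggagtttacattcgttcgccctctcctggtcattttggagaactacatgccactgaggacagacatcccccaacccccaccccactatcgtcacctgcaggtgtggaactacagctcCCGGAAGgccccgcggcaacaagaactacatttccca
Mrpl58, chr11:115403502-115403751, plus strand: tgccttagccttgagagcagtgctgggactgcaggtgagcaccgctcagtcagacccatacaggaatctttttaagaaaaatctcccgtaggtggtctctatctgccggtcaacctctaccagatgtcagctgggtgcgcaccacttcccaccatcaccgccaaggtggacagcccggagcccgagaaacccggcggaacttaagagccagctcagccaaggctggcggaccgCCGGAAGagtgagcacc
Mrpl12 held an NRF1 motif, and Mrpl20, which fell in Survivin LOF and in none of the other comparisons, an E-box:
Mrpl12, chr11:120484387-120484612, plus strand: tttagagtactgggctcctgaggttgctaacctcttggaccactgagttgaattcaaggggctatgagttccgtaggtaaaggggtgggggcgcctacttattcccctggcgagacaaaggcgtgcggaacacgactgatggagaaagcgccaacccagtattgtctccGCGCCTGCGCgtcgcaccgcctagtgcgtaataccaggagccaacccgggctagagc
Mrpl20, chr4:155802628-155802877, plus strand: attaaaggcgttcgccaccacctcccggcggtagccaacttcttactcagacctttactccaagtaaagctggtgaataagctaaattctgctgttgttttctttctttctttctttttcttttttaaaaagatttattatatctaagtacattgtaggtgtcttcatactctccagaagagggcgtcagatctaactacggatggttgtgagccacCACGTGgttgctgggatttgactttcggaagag
Mrpl45, whose level was nearly the same in every group, held 2 NRF1 motifs:
Mrpl45, chr11:97315466-97315715, plus strand: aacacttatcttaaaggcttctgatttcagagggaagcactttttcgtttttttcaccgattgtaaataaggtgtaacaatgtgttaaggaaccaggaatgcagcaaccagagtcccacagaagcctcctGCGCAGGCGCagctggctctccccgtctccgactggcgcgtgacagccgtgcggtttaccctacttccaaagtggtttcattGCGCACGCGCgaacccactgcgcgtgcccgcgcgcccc

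As recovered from the steps of the normalized values, between 7693153 and 8870758 reads stood behind each library, so that 3 reads were worth 6.76 to 7.80 normalized counts, and all 78 members lay above that floor in all 10 libraries. Birc5 had 382 and 429 normalized counts in Survivin LOF, against 961 and 1103 in Krt14 6-week. It had 7277 and 16384 in Survivin GOF, against 237 and 265 in Inv 8-week. The summed keratinocyte markers Krt14, Krt5, Trp63, Cdh1 and Epcam reached 139804 to 288667 in the 10 libraries, and all 5 were found in every group. The second Survivin GOF library stood apart: its summed endothelial markers Pecam1, Cdh5 and Kdr were 853, against 244 in the first and 75 to 239 in the other groups. Xist, the RNA of the inactive X chromosome of female cells, differed between groups. It had 30024 and 59594 in Survivin LOF and 7589 and 56185 in Survivin GOF, against 51 to 194 in the 6 libraries of the other 3 groups. Ddx3y, a gene of the Y chromosome, had 1336 and 956 in Survivin LOF and 3328 and 970 in Survivin GOF, against 2289 to 2909 in those 6. A high Xist level thus came with altered Survivin in all 4 libraries and the 2 cannot be told apart, so counts with Xist as a term in the model stand beside the results they touch.

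The members differed in level far more than they changed. Levels per kilobase of principal transcript, averaged over the 10 libraries, ran from 80.0 normalized counts for Mrps16 to 1570 for Mrpl52, with a median of 306. After Mrpl52 came Mrpl33 at 1178, Mrpl42 at 1155 and Mrpl13 at 844, all of the large subunit. The lowest after Mrps16 were Mrpl58 at 103, Mrpl17 at 110.0 and Mrpl57 at 111. The principal transcripts of these 4 low members were 2572 to 7300 bases long, and their level per kilobase depends on which transcript the cells use. The steadiest members were Mrpl35, Mrps25, Mrpl45 and Mrpl10, whose group means spanned 0.16, 0.17, 0.19 and 0.25 on the log2 scale. The product of Mrpl45 lies at the exit of the peptide tunnel, and that of Mrpl10 at the base of the stalk that recruits translation factors. Mrps25 had 1511 and 1321 normalized counts in Survivin GOF, 1486 and 1604 in Krt14 8-week, 1545 and 1461 in Inv 8-week, 1519 and 1565 in Survivin LOF and 1641 and 1532 in Krt14 6-week. In each of the 5 comparisons the groups of Mrps25 overlapped. The widest spans belonged to Mrpl36 (1.55), Mrps6 (1.10), Mrpl42 (1.01) and Mrpl12 (0.98).

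**Figure D1:**
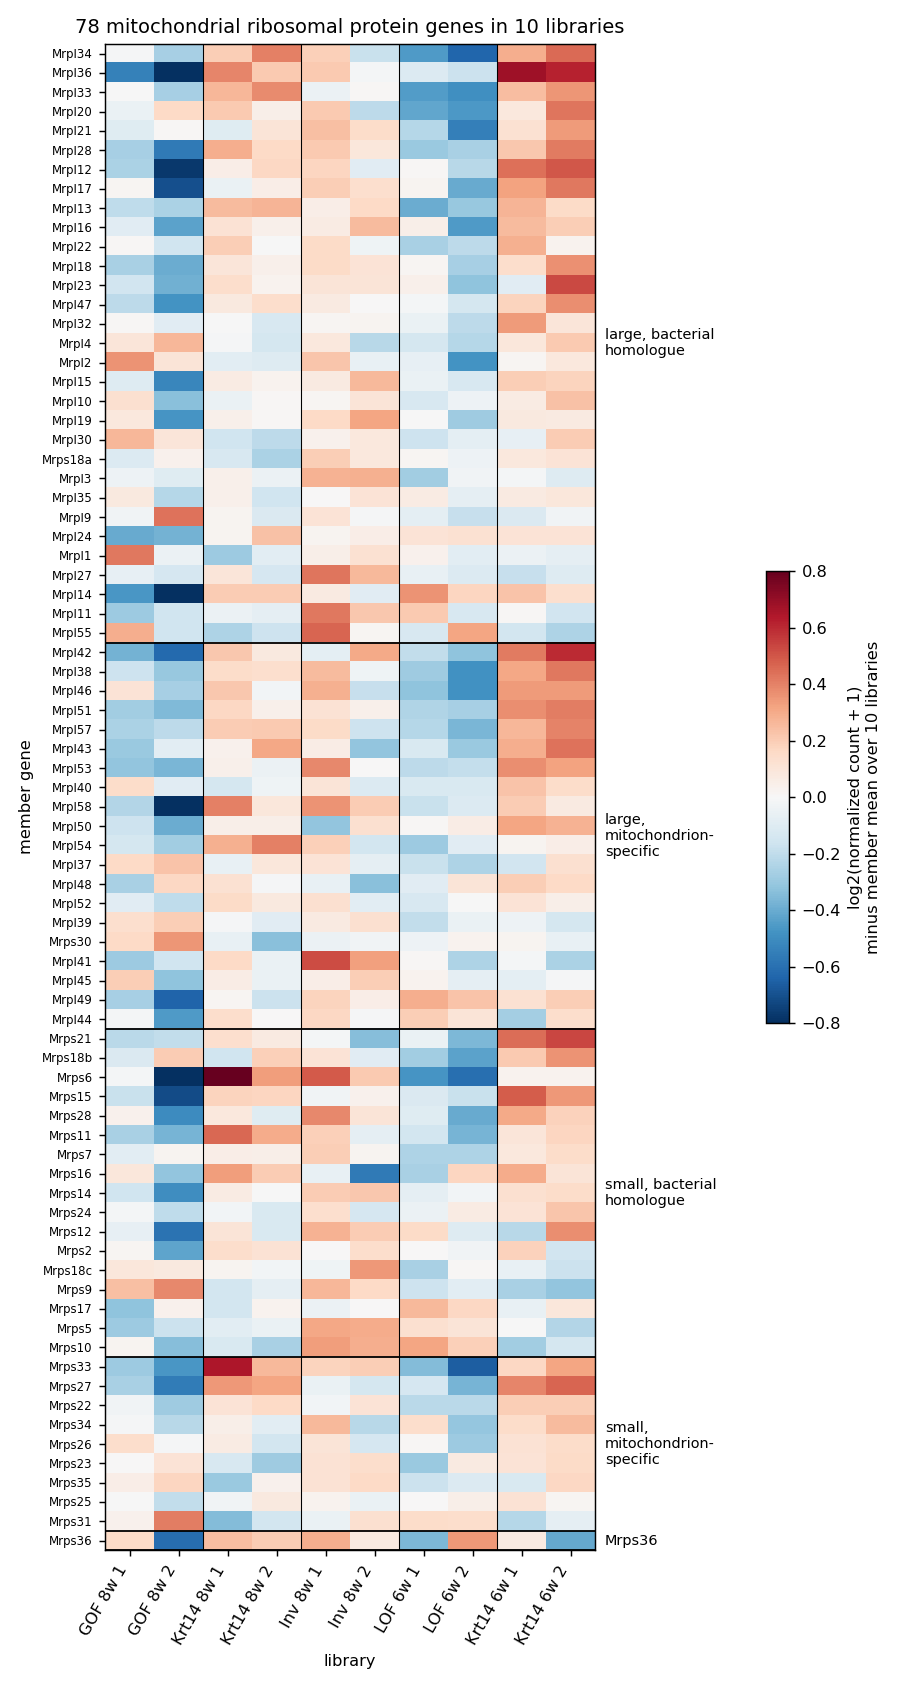
Colour shows log2(normalized count + 1) of each member (rows, by subunit and origin) in each library (columns) after its mean over the 10 libraries was subtracted; colours end at 0.8 in either direction. Most rows are blue in the Survivin GOF and Survivin LOF libraries and red in the Krt14 6-week libraries, while Mrpl35, Mrpl45 and Mrps25 stay near white.

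Summed over members, the normalized counts came to 38196 and 36725 in Survivin LOF, against 44170 and 45442 in Krt14 6-week. They came to 38801 and 35713 in Survivin GOF, against 41973 and 41368 in Krt14 8-week and 44024 and 42005 in Inv 8-week. All 4 libraries with altered Survivin thus lay below all 6 without. With 2 libraries a group, an exact two-sided permutation test of such a sum cannot give a p below 0.333. In these bulk libraries, fewer cells of a type and less RNA per cell cannot be told apart. The members made up 0.178% to 0.227% of all normalized counts.

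**Figure D2:**
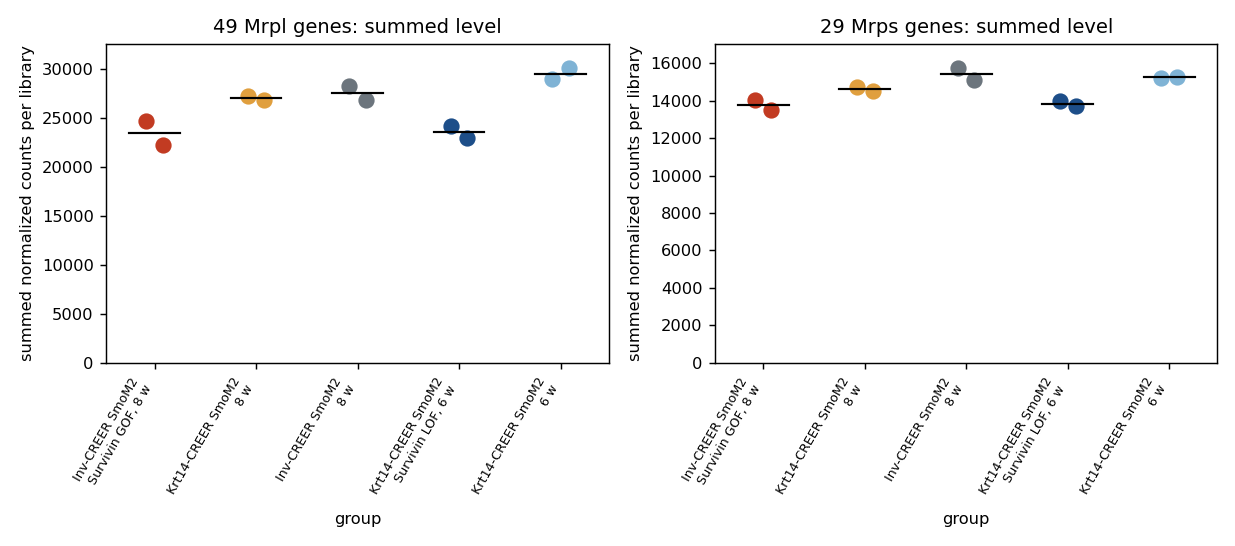
Points show the summed normalized counts of the 49 Mrpl genes (left) and the 29 Mrps genes (right) in each library, and lines the mean of the 2 libraries of a group; both axes start at 0. The Survivin GOF libraries reached 24739 and 22220 for Mrpl genes and the Survivin LOF libraries 24211 and 23017, against 26867 to 30164 in the other 6.

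In Survivin LOF against Krt14 6-week, which asks what loss of Survivin does in cells with Krt14-driven SmoM2, 22 members fell and 1 rose (limma, adjusted p under 0.05 over the 21995 rows tested). The 22 are 28.2% of the members, beside 11.4% of all rows tested that fell, and the 1 rise is 1.28%, beside 19.5% of all rows. The median log2 change was -0.27 over members and 0.16 over all rows, and 61 members had a change below 0 (40.2% of all rows). Both Survivin LOF libraries lay below both Krt14 6-week libraries for 51 members (25.8% of all rows) and above them for 8 (40.8%).

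**Figure D3:**
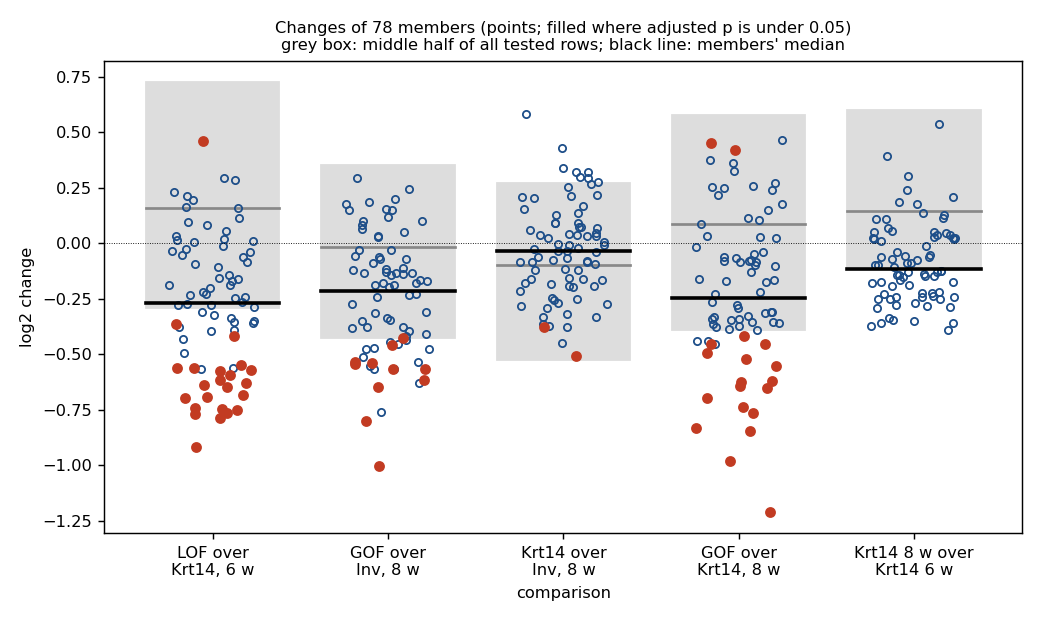
Points show the log2 change of each of the 78 members in 5 comparisons, filled where the adjusted p was under 0.05; black lines mark the members' median, grey boxes the interquartile range of all rows tested and grey lines their median. The members' median was -0.27 in Survivin LOF against Krt14 6-week, -0.21 in Survivin GOF against Inv 8-week and -0.24 in Survivin GOF against Krt14 8-week, below the median of all rows each time. It was also below in Krt14 8-week against Krt14 6-week, at -0.12 against 0.14. In Krt14 8-week against Inv 8-week it was above, at -0.04 against -0.10.

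Falls in Survivin LOF came from both subunits, 15 of 51 members of the large one and 7 of 26 of the small one. They also came from both origins, with 12 of 48 bacterial homologues and 10 of 30 mitochondrion-specific members. Mrpl34, a homologue of a small bacterial large-subunit protein (chr8:71464959-71465747, plus strand), had 124 and 109 normalized counts in Survivin LOF, against 208 and 233 in Krt14 6-week. Its log2 change was -0.92 (SE 0.21, adjusted p = 0.00835), the largest fall among members. Mrpl36, another such homologue (chr13:73328513-73332178, plus strand), had 357 and 343 normalized counts in Survivin LOF, against 617 and 592 in Krt14 6-week. That gave a log2 change of -0.79 (SE 0.21, adjusted p = 0.0178). Exons of Mrpl36 and of Ndufs6, which lies on the opposite strand, overlap, and whether counting used strand is not given in the sources used here. Mrpl33 had 404 and 393 in Survivin LOF, against 655 and 706 in Krt14 6-week, with a log2 change of -0.77 (SE 0.14, adjusted p = 0.00173). It has the smallest p of the 78 in this comparison, and its exons share the strand with those of Gm43809. Among mitochondrion-specific members, Mrpl42 (chr10:95480805-95501940, minus strand) had 647 and 593 in Survivin LOF, against 989 and 1121 in Krt14 6-week, a log2 change of -0.76 (SE 0.16, adjusted p = 0.00382). Mrpl38 had 337 and 294 in Survivin LOF, against 509 and 551 in Krt14 6-week, a change of -0.75 (SE 0.15, adjusted p = 0.00406). None of these members had overlapping groups, which was a condition for naming them and so lends no support. All 22 that fell had no overlap, and the share among all rows that fell was not counted.

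In the small subunit the largest fall was that of Mrps33, a mitochondrion-specific protein (chr6:39801804-39810988, minus strand). It had 169 and 136 normalized counts in Survivin LOF, against 242 and 269 in Krt14 6-week (log2 fold change -0.75, SE 0.20, adjusted p = 0.0165). Mrps27, an RNA-binding protein with pentatricopeptide repeats, had 642 and 546 in Survivin LOF, against 927 and 974 in Krt14 6-week (log2 fold change -0.68, SE 0.14, adjusted p = 0.00391). The other 15 falls were Mrpl46, Mrpl20, Mrpl51, Mrpl57, Mrpl21, Mrpl28, Mrpl12, Mrpl13, Mrpl43, Mrpl53, Mrps21, Mrps18b, Mrps15, Mrps22 and Mrps7, between -0.74 for Mrpl46 and -0.36 for Mrps7. Mrpl12, which encodes the stalk protein that is also known to bind the mitochondrial RNA polymerase, had 944 and 805 in Survivin LOF, against 1276 and 1325 in Krt14 6-week. Its change was -0.58 (SE 0.17, adjusted p = 0.0255), and its exons overlap Gm16755 on the other strand. The gene for that polymerase, Polrmt, had 513 and 469 in Survivin LOF, against 736 and 819 in Krt14 6-week, and fell too (log2 fold change -0.66, SE 0.14, adjusted p = 0.00571). It was the only fall among 17 genes of mitochondrial DNA maintenance and transcription, of which 4 rose, with a median of 0.20. Of all rows 11.4% fell and 19.5% rose, with a median of 0.16, so nothing particular to that list is read from these counts. The single rise among the members was that of Mrps10, a homologue of bacterial S10. Mrps10 (chr17:47368887-47381417, plus strand) had 647 and 593 in Survivin LOF, against 428 and 471 in Krt14 6-week, a log2 change of 0.46 (SE 0.15, adjusted p = 0.0382). This rise did not pass under the median-of-ratios rescaling, with voom on recovered reads, or when any 1 of the 8 libraries outside Survivin GOF was left out.

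When values of Survivin LOF and Krt14 6-week were rescaled along with the rest by the median of ratios, which moved the median of all rows to 0.02, 34 members fell and none rose, with 15.8% of all rows falling. The same rescaling put 49.0% of all changed rows on the higher side, against 63.1% without it. With the Xist level as a term in the model, 6 members fell, 7.69% of the members and also 7.69% of all rows, and 5 of them were among the 22: Mrpl13, Mrpl20, Mrpl33, Mrpl51 and Mrps18b. The members' median was then -0.13, against 0.21 for all rows. With log2 of Xist as the term, which nearly separates the groups and widened the standard errors by a median of 3.77 times, no member passed. Of all rows 1.59% fell and 2.69% rose there. The members' median was 0.19, against 0.28 for all rows. Leaving out Survivin LOF replicate 1 left 14 falls (17.9% of members, 8.61% of all rows), and leaving out its replicate 2 left 6 (7.69% and 7.17%). Leaving out Krt14 6-week replicate 1 left 12 (15.4% and 7.74%), and leaving out its replicate 2 left 6 (7.69% and 6.4%). With either replicate 2 left out, the members' share was thus near that of all rows. Marker levels differed in the same comparison, some higher and some lower in Survivin LOF. The 5 fibroblast markers, all found, summed to 18792 and 19183 in Survivin LOF, against 2663 and 1294 in Krt14 6-week. Of these sums Dcn made up 17993 and 18053 in Survivin LOF, against 2205 and 1163 in Krt14 6-week. Col1a2 rose as well, with 647 and 1006 in Survivin LOF, against 137 and 19 in Krt14 6-week (log2 fold change 3.94, SE 0.66, adjusted p = 0.00126). Col1a1 had 117 and 93 in Survivin LOF, against 218 and 75 in Krt14 6-week, and its groups overlapped, as did those of Col3a1 and Pdgfra. The 5 melanocyte markers, all found, summed to 1917 and 1770 in Survivin LOF, against 609 and 587 in Krt14 6-week. The 5 immune markers summed to 589 and 1027 in Survivin LOF, against 245 and 206 in Krt14 6-week, with Lyz2 at 0 in both groups. Among them Cd74 rose, with 402 and 751 in Survivin LOF, against 79 and 55 in Krt14 6-week (log2 fold change 3.04, SE 0.38, adjusted p = 0.000213). Ptprc and Csf1r did not pass. The 3 endothelial markers summed to 78 and 75 in Survivin LOF, against 134 and 189 in Krt14 6-week, with Kdr at 0 in both Survivin LOF libraries. Of these, Pecam1 fell (log2 fold change -1.09, SE 0.29, adjusted p = 0.0165). The 5 keratinocyte markers summed to 258747 and 224761 in Survivin LOF, against 267344 and 288667 in Krt14 6-week, and Epcam and Trp63 fell among them, by 0.78 and 0.42 on the log2 scale (adjusted p = 0.00162 and 0.0179). The part of these cells in the result was not tested.

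**Figure D4:**
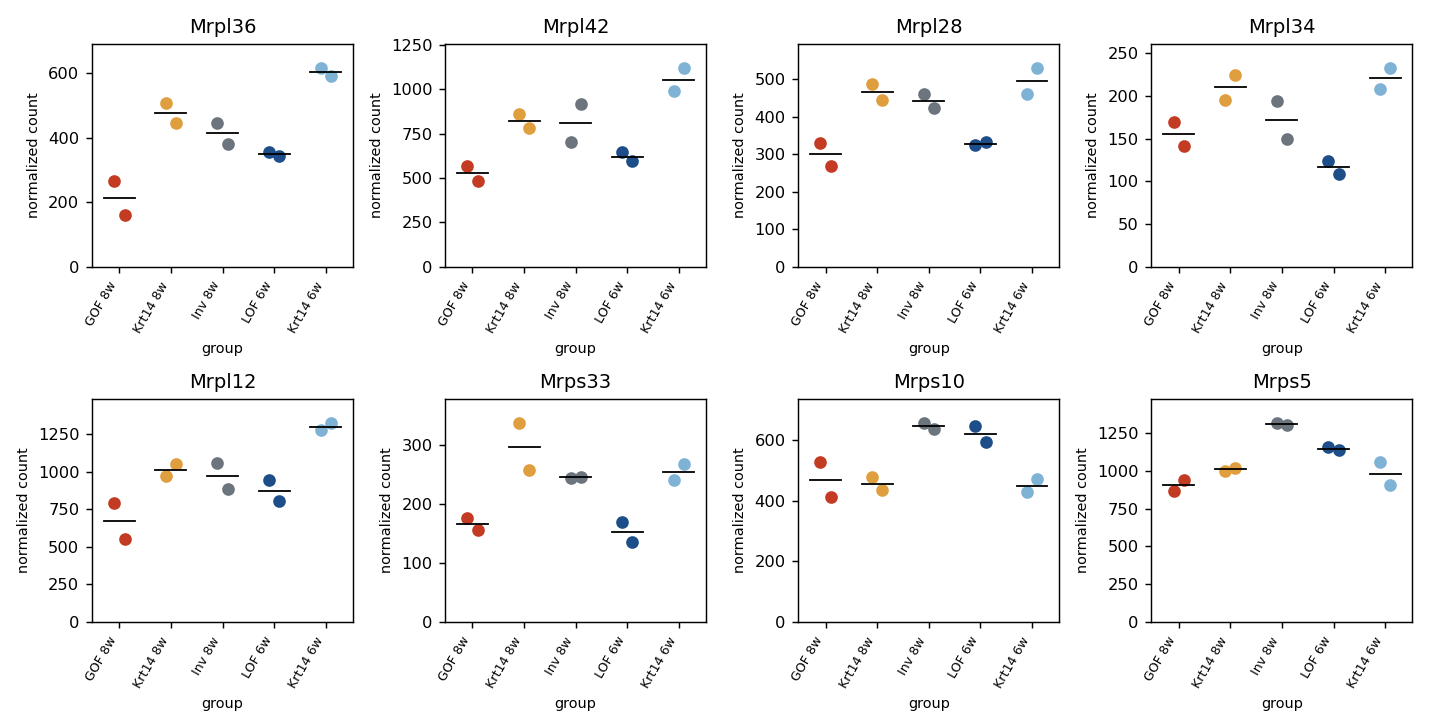
Points show the normalized count of 8 members in each library and lines the mean of the 2 libraries of a group; every axis starts at 0. Mrpl36, Mrpl42 and Mrpl28 are low in both Survivin GOF and Survivin LOF, Mrpl34 is lowest in Survivin LOF, and Mrps10 and Mrps5 are high in Inv 8-week and Survivin LOF.

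In Survivin GOF against Inv 8-week, which asks what added Survivin does in cells with Inv-driven SmoM2, 11 members fell and none rose. The 11 are 14.1% of the members, beside 8.4% of all rows that fell, while 6.87% of all rows rose. At an unadjusted p under 0.05 no member lay above 0 and 28 lay below. The share of all rows at an unadjusted p was not counted, here or in later comparisons. Voom on recovered reads also found no rise, beside 7.14% of all rows that rose. The median log2 change was -0.21 over members and -0.01 over all rows, and 62 members had a change below 0 (51.0% of all rows). Both Survivin GOF libraries lay below both Inv 8-week libraries for 41 members (27.9% of all rows) and above for 5 (27.0%).

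Mrpl36 had 265 and 159 normalized counts in Survivin GOF, against 446 and 382 in Inv 8-week. With a log2 change of -1.0 (SE 0.21, adjusted p = 0.0109) it was the member that fell most. Mrpl58 (chr11:115403752-115412674, plus strand), a subunit that is also known as a peptidyl-tRNA hydrolase rescuing stalled ribosomes, had 222 and 149 in Survivin GOF, against 335 and 301 in Inv 8-week. Its change was -0.80 (SE 0.21, adjusted p = 0.0274), and its exons overlap those of Ict1os on the other strand. Mrpl41 is mitochondrion-specific and in human cells has been tied to apoptosis. It had 202 and 221 normalized counts in Survivin GOF, against 355 and 310 in Inv 8-week (log2 fold change -0.65, SE 0.18, adjusted p = 0.0376). Mrpl42 had 570 and 481 in Survivin GOF, against 704 and 915 in Inv 8-week (log2 fold change -0.62, SE 0.16, adjusted p = 0.0227), and Mrpl28 (chr17:26123500-26126613, plus strand), a homologue of a bacterial large-subunit protein, had 330 and 268 in Survivin GOF, against 460 and 423 in Inv 8-week (log2 fold change -0.57, SE 0.16, adjusted p = 0.0332). Mrpl49 had 412 and 318 in Survivin GOF, against 560 and 513 in Inv 8-week (log2 fold change -0.57, SE 0.15, adjusted p = 0.032); its exons overlap those of Syvn1 on the other strand. None of these members had overlapping groups, which was a condition for naming them. The other 5 falls were Mrps14, Mrpl11, Mrps5, Mrpl18 and Mrpl24, between -0.54 and -0.43. Mrpl11 encodes a protein of the stalk base. It had 291 and 320 in Survivin GOF, against 478 and 414 in Inv 8-week, and passed narrowly (log2 fold change -0.54, SE 0.17, adjusted p = 0.0494).

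In this comparison with Inv 8-week, 1 member fell with Xist as a term in the model, Mrps5, beside 4.39% of all rows. The members' median was then -0.12. With log2 of Xist none fell, beside 0.118% of all rows, and the median was 0.13. Leaving out Survivin GOF replicate 1 left 27 falls (34.6% of members, 17.8% of all rows) and 1 rise. Leaving out Survivin GOF replicate 2, which also had the higher Xist and endothelial marker values, left 3 falls (3.85% and 5.51%). Leaving out Inv 8-week replicate 1 left 1 fall (1.28% and 2.9%), and leaving out its replicate 2 left none, beside 2.74% of all rows. In these last 3 settings the members' share was below that of all rows. Leaving out either Krt14 8-week library, which adds to the estimate of the spread, left 6 falls (7.69%, beside 6.41% and 6.44% of all rows), and leaving out either Krt14 6-week library left 7 (8.97% and 7.53%). The summed fibroblast markers overlapped, at 37627 and 14753 in Survivin GOF and 17914 and 19969 in Inv 8-week, while the melanocyte sum was lower, 1364 and 1341 in Survivin GOF, against 1691 and 1829 in Inv 8-week. The endothelial sum was higher, 244 and 853 in Survivin GOF, against 208 and 239 in Inv 8-week. The immune sums overlapped, with 620 and 532 in Survivin GOF and 629 and 619 in Inv 8-week. So did the keratinocyte sums, with 208432 and 139804 in Survivin GOF and 179616 and 172279 in Inv 8-week. Single markers could differ from their sum. Cdh1 rose, with 9570 and 8244 in Survivin GOF, against 6792 and 6722 in Inv 8-week (log2 fold change 0.39, SE 0.093, adjusted p = 0.0169). Without overlap, Trp63 was higher and Col1a2 lower in Survivin GOF, and neither passed. The part of these cells in the result was not tested.

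In Survivin GOF against Krt14 8-week, groups that differ in driver as well as in Survivin, 17 members fell and 2 rose. These are 21.8% of the members, beside 12.5% of all rows that fell, and 2.56%, beside 15.2% of all rows that rose. The median was -0.24 over members and 0.09 over all rows, and 58 members had a change below 0 (44.4% of all rows). Both Survivin GOF libraries lay below both Krt14 8-week libraries for 40 members (25.6% of all rows) and above for 14 (35.0%). This comparison shares its Survivin GOF libraries with that against Inv 8-week. Mrpl36 had 265 and 159 normalized counts in Survivin GOF, against 507 and 447 in Krt14 8-week (log2 fold change -1.21, SE 0.21, adjusted p = 0.00206), the largest change of any member in the 5 comparisons. Mrps6 had 248 and 143 in Survivin GOF, against 438 and 317 in Krt14 8-week (log2 fold change -0.98, SE 0.26, adjusted p = 0.0161). Exons of Slc5a3 overlap those of Mrps6 on the same strand, so reads of the pair may have been dropped or assigned to either. Mrpl14 had 77 and 60 in Survivin GOF, against 123 and 123 in Krt14 8-week (log2 fold change -0.85, SE 0.24, adjusted p = 0.0214), and Mrps33 had 176 and 156 in Survivin GOF, against 338 and 258 in Krt14 8-week (log2 fold change -0.83, SE 0.20, adjusted p = 0.0109). Mrps27 had 590 and 479 in Survivin GOF, against 898 and 878 in Krt14 8-week (log2 fold change -0.74, SE 0.14, adjusted p = 0.00284). All of these were low in Survivin GOF without overlap, which was a condition for naming them. The 2 rises were Mrps30 and Mrps9. Mrps30, a mitochondrion-specific protein of the large subunit despite its name, had 715 and 817 in Survivin GOF, against 614 and 508 in Krt14 8-week (log2 fold change 0.45, SE 0.14, adjusted p = 0.029). Mrps9 had 1147 and 1264 in Survivin GOF, against 875 and 924 in Krt14 8-week (log2 fold change 0.42, SE 0.11, adjusted p = 0.0165).

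In Survivin GOF against Krt14 8-week the median-of-ratios rescaling gave 23 falls (29.5% of members, 14.8% of all rows) and 1 rise. Voom on recovered reads gave 25 falls (32.1% and 16.6%) and no rise, with 40.6% of all changed rows on the higher side, against 55.0% with limma on the normalized values. With Xist as a term 4 fell (Mrpl13, Mrpl24, Mrpl36 and Mrps27), beside 8.77% of all rows. With log2 of Xist none did, beside 0.523% of all rows, and the members' median was 0.14. The fibroblast sum was 37627 and 14753 in Survivin GOF, against 2429 and 1792 in Krt14 8-week. Melanocyte markers summed to 1364 and 1341 in Survivin GOF, against 888 and 1034 in Krt14 8-week, immune markers to 620 and 532 in Survivin GOF, against 242 and 439 in Krt14 8-week, and endothelial markers to 244 and 853 in Survivin GOF, against 210 and 168 in Krt14 8-week. Keratinocyte markers were lower, 208432 and 139804 in Survivin GOF, against 233110 and 243308 in Krt14 8-week. The part of these cells in the result was not tested. Leaving out Krt14 8-week replicate 1 left 4 falls (5.13% of members, 7.01% of all rows), leaving out its replicate 2 left 8 (10.3% and 7.28%), and leaving out Survivin GOF replicate 2 left 7 (8.97% and 10.7%). Without Survivin GOF replicate 1 the share of members that fell was higher, and above that of all rows. The number that rose changed with any library of either group left out, while the share of members that rose stayed below that of all rows.

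Few members passed at an adjusted p under 0.05 between the groups with unaltered Survivin, which does not show that their levels were alike. In Krt14 8-week against Inv 8-week, which sets basal against differentiating-cell expression of SmoM2, 2 members fell and none rose. They are 2.56% of the members, beside 11.4% of all rows that fell, and 8.18% of all rows rose. At an unadjusted p under 0.05, 3 members lay above 0 and 7 below. Voom on recovered reads called 3 rises and no fall, beside 12.1% of all rows that rose and 9.59% that fell. A change below 0 was seen in 45 members, 57.7%, beside 57.9% of all rows. Both Krt14 8-week libraries lay below both Inv 8-week libraries for 28 members (38.5% of all rows) and above for 15 (25.4%). The median was -0.04 over members and -0.10 over all rows, and the members' median turned to 0.05 under the median-of-ratios rescaling. With voom it was 0.09, and 55.7% of all changed rows were on the higher side, against 41.8% with limma on the normalized values. Mrps10 had 477 and 434 in Krt14 8-week, against 656 and 637 in Inv 8-week (log2 fold change -0.51, SE 0.15, adjusted p = 0.0369). Mrps5 (chr2:127587222-127606829, plus strand), a homologue of bacterial S5, had 1000 and 1023 in Krt14 8-week, against 1318 and 1306 in Inv 8-week (log2 fold change -0.38, SE 0.11, adjusted p = 0.0395). Both were low in Krt14 8-week without overlap, which was a condition for naming them. The fibroblast sum was 2429 and 1792 in Krt14 8-week, against 17914 and 19969 in Inv 8-week, the melanocyte sum 888 and 1034 in Krt14 8-week, against 1691 and 1829 in Inv 8-week, and the immune sum 242 and 439 in Krt14 8-week, against 629 and 619 in Inv 8-week. The keratinocyte sum was higher, 233110 and 243308 in Krt14 8-week, against 179616 and 172279 in Inv 8-week. The endothelial sums overlapped, at 210 and 168 in Krt14 8-week and 208 and 239 in Inv 8-week. Kdr among them fell, with 3 and 3 in Krt14 8-week, below the floor of 3 reads, against 30 and 37 in Inv 8-week (log2 fold change -3.10, SE 0.96, adjusted p = 0.0434). Cdh5 was lower without passing, and Pecam1 overlapped. The part of these cells in the values was not tested. Neither call was made under the median-of-ratios rescaling, with voom, or without any 1 library of Krt14 8-week, Inv 8-week or Survivin LOF. In Krt14 8-week against Krt14 6-week no member passed in either direction with limma, beside 4.02% of all rows that rose and 0.855% that fell. At an unadjusted p under 0.05, 3 members lay below 0 and none above. Voom on recovered reads called none, beside 1.59% of all rows that rose and 1.95% that fell. The median was -0.12 over members and 0.14 over all rows, with 52 members below 0 (35.4% of all rows). Both Krt14 8-week libraries lay below both Krt14 6-week libraries for 40 members (18.2% of all rows) and above for 6 (38.3%). The rescaling put these medians at -0.26 and 0.00, and 53.7% of all changed rows on the higher side, against 82.5% without it.

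The comparison of Survivin LOF with Krt14 6-week and that of Survivin GOF with Inv 8-week share no library. Of the members that fell, 3 fell in both, Mrpl28, Mrpl36 and Mrpl42, which is 13.6% of those that fell in Survivin LOF and 27.3% of those that fell in Survivin GOF. The 3 are 3.85% of the members, and 1.87% of all rows fell in both, or 16.4% and 22.2% of all rows that fell in Survivin LOF and in Survivin GOF. The overlap is therefore described and not read as particular to the members. These 3 also fell in Survivin GOF against Krt14 8-week, where the log2 changes were -0.64 for Mrpl28 and -0.65 for Mrpl42. Over the 78 members the changes had a Pearson r of 0.15 and a Spearman rho of 0.12, against -0.05 and -0.02 over all 21995 rows. As a description of the members, 49 (62.8%) had a change below 0 in both and 4 (5.13%) above 0 in both, beside 20.9% and 29.3% of all rows. The difference between the Survivin LOF change and the Survivin GOF change, fitted as a contrast chosen after the data were seen, passed upward for 3 members, beside 15.3% of all rows, and downward for 1, beside 8.34%. Of all rows that passed, 64.8% were upward, against 52.5% under the median-of-ratios rescaling, which put the median of all rows at 0.01, against 0.17. Without Survivin GOF replicate 1 the counts were 6 and 5. Mrps10 differed most, by 0.94 (SE 0.21, adjusted p = 0.00927), with log2 changes of 0.46 in Survivin LOF and -0.47 in Survivin GOF, and the change in Survivin GOF did not pass (adjusted p = 0.0575). Mrps5 differed by 0.77 (SE 0.16, adjusted p = 0.00603), with 1158 and 1139 normalized counts in Survivin LOF and 869 and 942 in Survivin GOF, against 1059 and 904 in Krt14 6-week and 1318 and 1306 in Inv 8-week. Mrpl49 differed by 0.66 (SE 0.22, adjusted p = 0.0492). Mrpl33 differed in the other direction, by -0.66 (SE 0.19, adjusted p = 0.03), low in Survivin LOF while its Survivin GOF values of 551 and 458 stood against 533 and 554 in Inv 8-week.

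**Figure D5:**
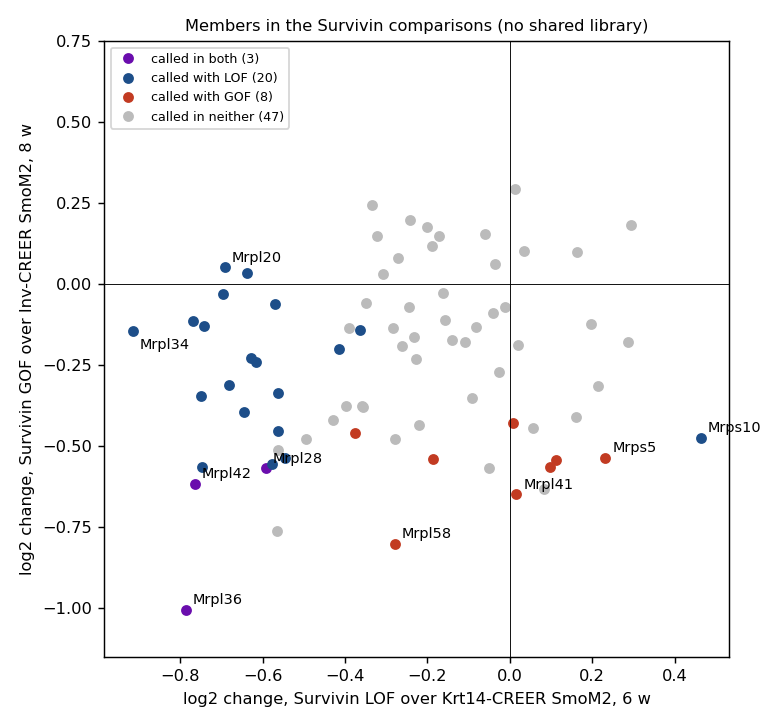
Each point is a member, with its log2 change in Survivin LOF over Krt14 6-week on the horizontal axis and in Survivin GOF over Inv 8-week on the vertical axis; colour shows in which comparison its adjusted p was under 0.05. The members called in both, Mrpl36, Mrpl42 and Mrpl28, lie at the lower left, and Mrps10 lies at the lower right.

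Over the 5 comparisons, some of which share libraries, 40 members passed in none, 38 (48.7%) in at least 1, 14 (17.9%) in at least 2 and 3 (3.85%) in at least 3. Of all rows tested, 49.9% passed in at least 1, 29.7% in at least 2 and 15.1% in at least 3. Several members with known roles were among the 40. Mrps12, which lies at the decoding centre, had 147 and 102 normalized counts in Survivin GOF, against 187 and 177 in Inv 8-week, a log2 change of -0.57 (adjusted p = 0.176). The 3 paralogues of bacterial S18 were called differently. Mrps18b fell in Survivin LOF, with 283 and 255 against 397 and 442 in Krt14 6-week (log2 fold change -0.64, SE 0.18, adjusted p = 0.0213). The changes there of Mrps18a and Mrps18c, -0.11 and -0.01, did not pass, and differences between paralogues were not tested. Mrps36 had 62 and 102 in Survivin LOF, against 84 and 60 in Krt14 6-week, so its groups overlapped. Exons of 33 members overlap those of another annotated gene, 8 on the same strand and 28 on the other. Among the 45 with no overlap, 10 fell and 1 rose in Survivin LOF, beside 11.4% and 19.5% of all rows tested. In Survivin GOF against Inv 8-week 6 fell and none rose, beside 8.4% and 6.87% of all rows. The medians of these 45 were -0.24 and -0.19.

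Genes of ribosomal proteins with other names numbered 5 (Dap3, Ptcd3, Chchd1, Aurkaip1 and Gadd45gip1). None passed in Survivin LOF with limma, with a median of -0.32, although 3 lay below 0 at an unadjusted p under 0.05 and 3 fell with voom. Of all rows 11.4% fell with limma and 15.1% with voom. Against Inv 8-week, 2 fell in Survivin GOF, Chchd1 and Ptcd3, beside 8.4% of all rows, and the median of the 5 was -0.39. With so few genes, nothing particular to the list is read from these counts. Chchd1 had 267 and 232 normalized counts in Survivin GOF, against 353 and 439 in Inv 8-week (log2 fold change -0.66, SE 0.16, adjusted p = 0.0218). Dap3, a GTP-binding protein of the small subunit, had 1181 and 1230 in Survivin GOF, against 1068 and 1082 in Inv 8-week, and 1058 and 1150 in Survivin LOF, against 1028 and 1013 in Krt14 6-week. Neither difference of Dap3 passed.

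Counts for other genes of mitochondrial translation stand beside 19.5% of all rows that rose and 11.4% that fell in Survivin LOF, and 6.87% that rose and 8.4% that fell in Survivin GOF against Inv 8-week. Nothing particular to a list is read from them. Of 15 translation factors, 2 rose and 2 fell in Survivin LOF, and 4 fell in Survivin GOF against Inv 8-week. Tufm, the elongation factor that brings aminoacyl-tRNA to the ribosome, had 900 and 686 in Survivin LOF, against 1231 and 1323 in Krt14 6-week (log2 fold change -0.70, SE 0.16, adjusted p = 0.0064). It had 626 and 500 in Survivin GOF, against 961 and 877 in Inv 8-week (log2 fold change -0.71, SE 0.16, adjusted p = 0.0119). Tufm was thus low in both groups with altered Survivin. Gfm2, which acts in ribosome recycling, had 1160 and 1317 in Survivin LOF, against 805 and 706 in Krt14 6-week, and rose (log2 fold change 0.71, SE 0.14, adjusted p = 0.00285). Of 29 assembly and rRNA modification factors 4 rose in Survivin LOF, among them Mrm1, Gtpbp10 and Rbfa at 0.85, 0.77 and 0.62. Against Inv 8-week, 1 rose and 3 fell in Survivin GOF, including Tfb1m, which methylates the small ribosomal RNA, with 99 and 63 normalized counts in Survivin GOF, against 162 and 152 in Inv 8-week (log2 fold change -0.98, SE 0.24, adjusted p = 0.0197). The 22 genes of aminoacyl-tRNA synthesis gave 3 rises and 2 falls in Survivin LOF and 3 falls in Survivin GOF. Mitochondrial DNA maintenance and transcription gave 4 rises and 1 fall, that of Polrmt, among 17 genes in Survivin LOF, and 1 fall in Survivin GOF. Of 15 rows encoded in mitochondrial DNA none passed in Survivin LOF with limma, while 2 lay below 0 at an unadjusted p under 0.05. With voom 2 fell, beside 15.1% of all rows. The row of mt-Nd1 had 52560 and 40208 in Survivin GOF, against 60123 and 75006 in Inv 8-week, and fell (log2 fold change -0.55, SE 0.14, adjusted p = 0.025).

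Among 12 regulators of mitochondrial biogenesis, 2 rose and 5 fell in Survivin LOF, beside 19.5% of all rows that rose and 11.4% that fell. Myc had 835 and 871 normalized counts in Survivin LOF, against 2265 and 2423 in Krt14 6-week (log2 fold change -1.46, SE 0.29, adjusted p = 0.00339). Pprc1, a coactivator of the PGC-1 family, had 1462 and 1254 in Survivin LOF, against 2222 and 2180 in Krt14 6-week (log2 fold change -0.70, SE 0.12, adjusted p = 0.00173), and Ppargc1b, another, fell as well (log2 fold change -0.68, SE 0.17, adjusted p = 0.0119). Against Inv 8-week, Myc and Perm1 rose in Survivin GOF. Myc had 972 and 2335 normalized counts in Survivin GOF, against 799 and 737 in Inv 8-week (log2 fold change 0.97, SE 0.29, adjusted p = 0.045). The Survivin GOF libraries of Myc were far apart, and without replicate 2, with voom or with Xist as a term that rise did not pass. A link between Myc and the members was not tested.

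Genes of the cytosolic ribosome, which translates all nuclear messenger RNAs, were set beside the members. Of 89 tested in Survivin LOF, 25 rose and 7 fell, with a median of 0.15, beside 0.16 for all rows. Of all rows 19.5% rose and 11.4% fell. Under the median-of-ratios rescaling 8 rose and 9 fell, with a median of 0.01, beside 15.2% of all rows that rose and 15.8% that fell. Against Inv 8-week, 1 rose and 1 fell in Survivin GOF, with a median of 0.07, beside 6.87% of all rows that rose and 8.4% that fell. Cytosolic ribosomal protein genes have many near-identical copies in the genome, and rows such as Rps3a2, with 102 and 91 normalized counts in Survivin LOF against 521 and 548 in Krt14 6-week, may exchange reads with them.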

How the data were processed

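Messenger RNA of FACS-isolated, SmoM2-YFP-expressing mouse epidermal cells was measured in 10 libraries, 2 in each of 5 groups, made with an RNeasy micro kit and the Ovation Solo kit from 10000 to 200000 cells per sample, per the labels' protocols. Reads were aligned with STAR and counted with HTSeq on GRCm38 (mm10), per the submitters' processing notes; versions, and whether counting used strand, were not given in the sources used here. Values deposited by the authors are treated as a score per gene: normalized counts, whole numbers that sum to 20011195 to 20014054 in every library, as the values themselves show, so they are not raw counts. Values lie on steps that recover whole reads for 99.3% to 99.9% of values per library and give 7693153 to 8870758 reads. A floor of 3 reads, 6.76 to 7.80 normalized counts, covers counting error only.

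Group means of log2(value + 1) were fitted over all 10 libraries with limma 3.58.1 (R 4.3.3; eBayes with trend, residual df 5) on the 21995 rows with a value of at least 10 in 2 or more libraries. Fold changes are on that log2(value + 1) scale, which understates those of low genes. P-values were adjusted by Benjamini-Hochberg over these rows, and a row rose or fell at an adjusted p under 0.05. The script was tested on simulated data. The labels do not say whether libraries of a group came from separate animals, so p-values measure the spread between these libraries. Replicate numbers did not pair samples. Named genes are, in each comparison, up to 6 of the largest rises and 6 of the largest falls among members that passed without overlap and with a mean of at least 50, the 4 highest and 4 lowest per kilobase, the 4 widest and 4 steadiest, members passing in at least 3 comparisons, 12 members chosen by role, up to 3 genes of each list by p, and Birc5; Mrpl13, Mrpl20, Mrpl24, Mrpl49, Mrpl51, the full lists of falls, Dap3, Ptcd3 and Rps3a2 were named with their values known. The members and lists were chosen with earlier results of these data known. Alternatives were other pseudocounts (0.5, 5), no filter, a filter of 50, median-of-ratios rescaling, limma-voom on recovered reads, a replicate block and each library left out; the Xist terms, the difference between the Survivin LOF and Survivin GOF changes and the members free of exon overlap were added after the data were seen. Gene coordinates are from GENCODE vM21 (GRCm38), which held 49412 of the row identifiers and all 78 members; 9 members had no RefSeq promoter entry.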

Additional observations from a re-analysis of the deposited data

How the results depend on the processing

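Depth limits the low members most: Mrps36, the member with the lowest mean, had 52 to 102 normalized counts in a library, where a floor of 3 reads is 6.76 to 7.80. With 2 libraries a group, 1 library can decide a count. Leaving a library out also changed the share of all rows called, so nothing particular to the members is read from the ranges. When each library was left out in turn, the number of members that fell ran from 6 to 28 in Survivin LOF against Krt14 6-week, 0 to 27 in Survivin GOF against Inv 8-week, 0 to 3 in Krt14 8-week against Inv 8-week, 4 to 25 in Survivin GOF against Krt14 8-week, 0 to 0 in Krt14 8-week against Krt14 6-week and 0 to 5 for the difference between the Survivin LOF and Survivin GOF changes. The number that rose ran, in the same order, from 0 to 1, 0 to 1, 0 to 2, 0 to 4, 0 to 0 and 2 to 6. The members' median ran from -0.28 to -0.24, from -0.34 to -0.15, from -0.08 to 0.01, from -0.32 to -0.14 and from -0.14 to -0.07 in the 5 comparisons, and from -0.14 to 0.05 for the difference. The cause was not tested for any value in this paragraph or the next.

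In Survivin LOF against Krt14 6-week 0 members rose without a filter, under the median-of-ratios rescaling, with voom and with log2 Xist, and 34 fell under the rescaling, 6 with Xist and 0 with log2 Xist. Against Inv 8-week, 6 fell in Survivin GOF without a filter, 17 with a filter of 50, 1 with Xist and 0 with log2 Xist. The shares of all rows that fell were 4.24%, 12.7%, 4.39% and 0.118%. In Krt14 8-week against Inv 8-week 1 rose with a pseudocount of 5, a filter of 50, the replicate block or Xist. Under the rescaling 2 rose, and with voom 3. Of all rows 8.72%, 11.2%, 8.02%, 10.3%, 10.2% and 12.1% rose in these settings, in that order. Without a filter or with the block 1 fell, and under the rescaling or with voom 0. With Xist or the filter of 50, 3 fell. The shares of all rows that fell were, in that order, 6.35%, 11.3%, 9.61%, 9.59%, 14.9% and 15.6%. Against Krt14 8-week, 1 rose in Survivin GOF under the rescaling and 0 with voom or log2 Xist. Of all rows 12.7%, 11.4% and 0.396% rose there. With Xist 4 fell and with log2 Xist 0, beside 8.77% and 0.523% of all rows. In Krt14 8-week against Krt14 6-week 1 fell with Xist, beside 2.05% of all rows. For the difference between the Survivin LOF and Survivin GOF changes 6 were upward with log2 Xist, beside 18.3% of all rows. Downward were 2 with a filter of 50, 6 under the rescaling, 3 with voom and 4 with Xist. The shares of all rows downward were 11.7%, 11.4%, 10.1% and 10.8%.

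Same-numbered replicates had correlations of -0.054 to 0.041 between their deviations, so the numbers were not taken to pair the samples. With the replicate block 1 member rose and 21 fell in Survivin LOF against Krt14 6-week. In Survivin GOF 0 rose and 12 fell against Inv 8-week, and 3 rose and 17 fell against Krt14 8-week. In Krt14 8-week against Krt14 6-week 0 rose and 0 fell. Of all rows 19.2%, 6.84%, 15.0% and 3.7% rose in these comparisons with the block, in that order. The shares of all rows that fell were 11.3%, 8.68%, 12.5% and 0.787%.

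The changes of named genes that turned direction did so with log2 Xist, under which no member passed in these comparisons. In Survivin LOF against Krt14 6-week they became 0.18 for Gars, 0.65 for Mrpl12, 0.27 for Mrpl28, 1.02 for Mrpl36, 0.26 for Mrpl42, 0.36 for Mrps33 and 0.48 for Tufm. Against Inv 8-week, those in Survivin GOF became 1.27 for Mettl15, 0.084 for Mrpl28, 0.37 for Mrpl36, 0.16 for Mrpl42, 0.26 for Mrpl49, 0.29 for Mrpl58, -1.34 for Myc, 0.90 for Qrsl1, 0.18 for Tfb1m, 0.19 for Trub2, 0.18 for Tufm and 0.14 for mt-Nd1. Against Krt14 8-week, those in Survivin GOF became 0.33 for Gabpb2, 0.45 for Mrpl12, 0.11 for Mrpl28, 0.087 for Mrpl33, 0.38 for Mrpl36, 0.25 for Mrpl42, 0.50 for Mrpl58, 0.069 for Mrps27, 0.15 for Mrps33, 1.02 for Mrps6, -0.050 for Mrps9, 0.27 for Tfb1m, 0.093 for Tufm, 0.62 for Yars2, 0.85 for mt-Co2 and 0.22 for mt-Nd1.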

Other observations

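Across the 78 members, the log2 change in Survivin LOF against Krt14 6-week had a Spearman rho of 0.24 with the length of the principal transcript, and across the 14943 protein-coding genes tested the rho was 0.09. The members' median change was -0.28 for the 25 under 1000 bases, -0.36 for the 29 of 1000 bases up to 2000 and -0.18 for the 24 longer ones. In protein-coding genes of these length classes the medians were -0.01, 0.11 and 0.18. Genes share libraries and are not independent replicates, so these are descriptions.

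Across the members, the change in Survivin LOF against Krt14 6-week and the change in Krt14 8-week against Inv 8-week, which share no library, had a Pearson r of -0.58, and across all 21995 rows tested the r was -0.57. The members thus did not stand apart from the other rows in that relation.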
